A study of Mus musculus with 4 samples.

Results

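Amino acid transporters of growing lymphocytes were followed in BEKO, a mouse thymic lymphoma cell line. The group holds 10 carrier genes of neutral and cationic amino acids, listed by symbol, and all 10 are among the 25630 rows of the expression table. RNA was sequenced from BEKO cells of wild-type genotype at high density, in 2 libraries, and at low density, in 2 libraries, and the labels give no other treatment. What cell numbers the densities stand for is not stated. Nor is it stated whether the libraries of a group are separate cultures, so a p-value here reflects the spread between libraries, which could be technical. BEKO is 1 line of tumour cells, so the values describe that line and not thymocytes in general. The unit is TPM, a transcript abundance scaled to a fixed total, which is scaled for gene length and lets levels be compared between genes, but does not keep the sequencing depth, which is unknown here.

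Lymphocytes that grow and divide import amino acids for protein synthesis and as fuel, and T cells are known to raise several carriers when activated. Exchangers such as LAT1 trade an internal amino acid, often glutamine, for an external essential one, while sodium-coupled carriers and uniporters supply glutamine and arginine. Several exchangers work only as a pair of a light chain, which carries the amino acid, and the shared heavy chain encoded by Slc3a2, which brings the light chain to the cell surface. Leucine and arginine that enter through these carriers are sensed inside the cell and activate the growth kinase mTORC1 at the lysosome.

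The libraries carried the RNA of T lineage cells. The 9 listed T lineage markers in the table (Cd3d, Cd3e, Cd3g, Cd247, Lck, Ptprc, Thy1, Rag1 and Ptcra) summed to 7322 and 6812 TPM at high density, against 8105 and 7452 TPM at low density. Of the 9, Rag1, a recombinase gene of developing lymphocytes, was called lower (185 and 181 TPM at high density, against 609 and 480.2 TPM at low density, limma adjusted p = 0.00283), and its part in the results was not tested. The summed B cell, erythroid and epithelial markers stayed at or below 1.29 TPM in every library. Of 4 myeloid markers, Lyz2 was listed at 0 throughout and Csf1r at or below 0.203 TPM, while Itgam and Cd68 were present at 6.62 to 17.7 TPM. Low density library 1 stood apart. The collagen gene Col1a1 was at 30.3 TPM there and at or below 0.236 TPM in the other libraries, Col1a2 at 14.5 TPM against at most 0.30 TPM, and the third fibroblast marker Dcn was listed at 0 in all 4. That library alone held 35 rows at 5 TPM or more that stayed under 0.5 TPM in the rest. Their part in the results was not tested, and the transporter ratios without this library follow the group counts. The high density libraries also differed from each other, with an SD of log2 values of 0.43 over tested rows, against 0.28 between the low density libraries.

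None of the 10 transporters passed the test for a difference between densities. Rows whose mean reached 1 TPM were tested on log2(TPM + 1) with limma, and a row was called at a Benjamini-Hochberg adjusted p under 0.05. All 10 transporters met the filter, and 0 were called, while 6.68% of the 10936 rows tested were called, 4.57% higher and 2.11% lower. An unadjusted limma p under 0.05 was found for 2 of the 10, beside 23.5% of all rows tested. Without high density library 1 there were 5 calls among the 10, all higher, beside 29.9% of all rows. With a lone high density library the spread within groups is taken from the low density pair. That pair was the tighter (SD of log2 values 0.28 against 0.43), so calls without a high density library come more easily. In bulk RNA a change in the share of cells and a change in RNA per cell cannot be told apart. The log2 fold change, high over low density, was positive for 9 transporters and negative for Slc7a6, and 59.7% of all rows tested were positive. Slc7a5 and Slc43a1 turned negative when libraries were centred on their medians, and Slc43a1 also after quantile normalisation. Without high density library 2, Slc7a5, Slc1a5, Slc1a4, Slc7a1, Slc38a1 and Slc43a1 turned negative, and without low density library 2 Slc7a5 and Slc43a1 did. The median over the 10 was 0.25, beside 0.12 over all rows tested. Without high density library 1 that median of the 10 was 0.60, and without high density library 2 it was −0.052. The libraries of the 2 groups did not overlap for 4 of the 10 (Slc3a2, Slc7a6, Slc38a2 and Slc38a9), while 54.7% of all rows tested had no overlap. The summed TPM of the 10 genes was 1212 and 1916 at high density, against 1378 and 1075 at low density, so the high density libraries held both the highest sum and one inside the low density range. Without low density library 1, the ratios of mean TPM, high over low density, were 1.89 for Slc3a2, 1.23 for Slc7a5, 1.28 for Slc1a5, 2.07 for Slc1a4 and 1.67 for Slc38a2. They were 1.42 for Slc38a1, 1.39 for Slc7a1, 0.759 for Slc7a6, 1.18 for Slc43a1 and 2.21 for Slc38a9.

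**Figure D1:**
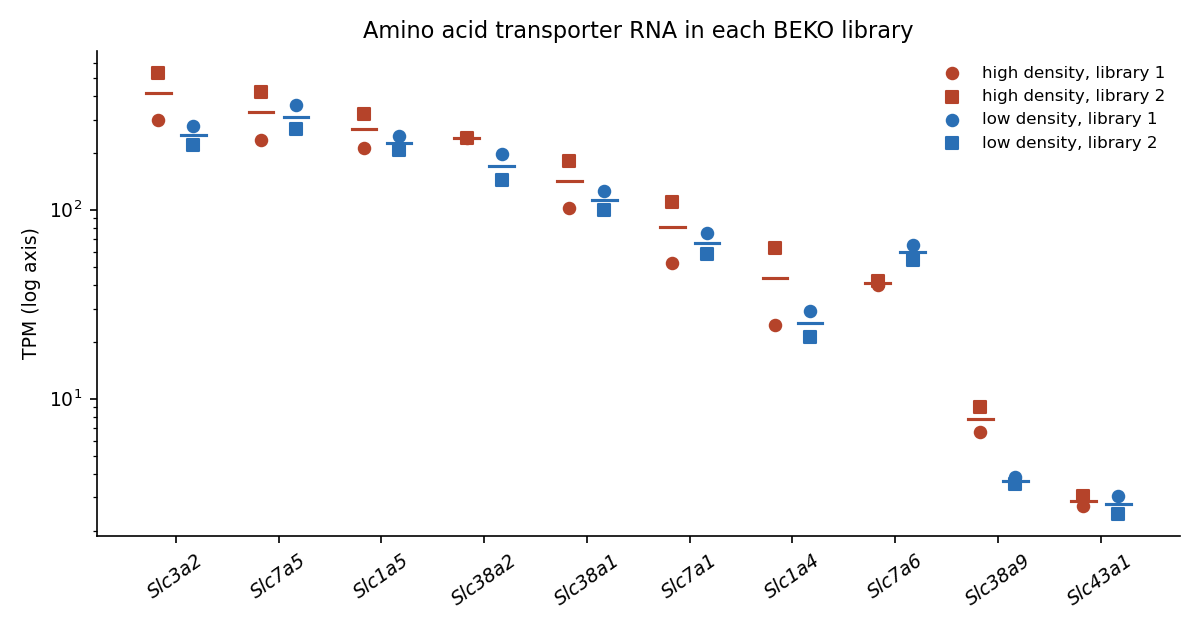
TPM (log axis) of each transporter in each BEKO library, with high density in red to the left of low density in blue, circles for library 1, squares for library 2 and a bar at the mean of 2 libraries. Slc3a2 leads in the high density libraries and Slc7a5 in the low density libraries, and high density library 2 lies well above high density library 1 for most genes.

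The order of levels was much the same in all 4 libraries, with Slc7a5, Slc3a2, Slc1a5 and Slc38a2 taking 78.8% to 81.1% of the summed TPM of the 10 genes at high density and 77.7% to 78.2% at low density. Slc3a2 and Slc7a5 lay at the 96.0 and 95.7 percentile of mean TPM over all rows tested, and Slc1a5 and Slc38a2 at the 93.9 and 92.1 percentile. Slc38a1 and Slc7a1 followed, then Slc7a6 and Slc1a4, though Slc1a4 lay above Slc7a6 in high density library 2 (62.6 against 41.8 TPM). In high density library 1 Slc38a2 lay above Slc7a5 and Slc1a5 (239.0 against 233 and 212 TPM). Slc38a9 at the 15.8 and Slc43a1 at the 8.98 percentile were weakly expressed. Neighbours in this order were often closer than their spread: at high density Slc7a5 averaged 327 ± 133 TPM and Slc1a5 266 ± 76.7 TPM (SD, n = 2 libraries), and at low density Slc3a2 averaged 249 ± 42.1 TPM and Slc1a5 226 ± 26.8 TPM. The first place differed between the groups, with Slc3a2 above Slc7a5 in both high density libraries and Slc7a5 above Slc3a2 in both low density libraries.

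The heavy chain gene Slc3a2, which encodes CD98hc, had 299.6 and 529.9 TPM at high density, against 278 and 219 TPM at low density. Both high density libraries lay above both low density libraries, the lower of them by little. The log2 fold change was 0.69 ± 0.29 (SE) with a 95% interval of 0.062 to 1.31, and it did not pass the test (limma adjusted p = 0.172). Mean TPM stood at a ratio of 1.67, or 2.13 with high density library 1 left out and 1.2 with library 2 of that group left out. Without high density library 1 Slc3a2 was called higher (limma adjusted p = 0.00585).

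Slc7a5, the LAT1 light chain and the main carrier of leucine and other large neutral amino acids in activated lymphocytes, had 233 and 421 TPM at high density, against 356 and 266 TPM at low density. The high density libraries lay on either side of both low density libraries. Its log2 fold change was 0.024 ± 0.29 (SE, limma adjusted p = 0.974), and the 95% interval ran from −0.62 to 0.67, or from 0.650-fold to 1.59-fold on the scale of TPM + 1. The direction turned with a single library: the ratio of mean TPM became 1.35 or 0.748 when high density library 1 or 2 was left out, and 1.23 or 0.917 when low density library 1 or 2 was left out.

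Slc7a6, the light chain y+LAT2, which exchanges cationic for neutral amino acids, was the only transporter with a negative log2 fold change. It had 40.1 and 41.8 TPM at high density, against 64.9 and 54.0 TPM at low density, without overlap. The log2 fold change was −0.52 ± 0.25 (SE) and did not pass the test (limma adjusted p = 0.238). With each library left out in turn the ratio of mean TPM lay between 0.632 and 0.759. The high density libraries were almost level for Slc7a6, unlike for Slc7a5 and Slc3a2.

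The balance of heavy and light chains was followed as a ratio within each library. Light chains of Slc3a2 were summed in each library over Slc7a5, Slc7a6, Slc7a7, Slc7a8, Slc7a10 and Slc7a11. Of these Slc7a11, the cystine-glutamate exchanger xCT, had 11.1 and 22.4 TPM at high density, against 21.2 and 18.9 TPM at low density, and Slc7a7, Slc7a8 and Slc7a10 did not pass 0.493 TPM in any library. Slc7a5 made up 81.9% and 86.7% of the light chain sum at high density, against 80.5% and 78.5% at low density.

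The summed light chains per Slc3a2 came to 0.948 and 0.917 at high density, against 1.59 and 1.55 at low density. The 2 libraries of each group lay close together and the groups far apart, although the TPM of Slc3a2 and Slc7a5 themselves differed widely between the high density libraries. The mean ratio was 0.932 ± 0.0218 at high density and 1.57 ± 0.0298 at low density (SD, n = 2 libraries), a difference of −0.64. An exact two-sided permutation test over libraries gave p = 0.33, which is the smallest value this test can give with 2 libraries against 2, so it cannot pass a threshold. With each library left out in turn the difference lay between −0.66 and −0.61, which follows from the closeness within each group. How often ratios of other genes separate in this way was not tested, and 54.7% of single rows tested had no overlap. A ratio within a library does not change when all TPM of that library are rescaled. It does not say which of the chains differed.

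For Slc7a5 alone per Slc3a2 the ratio was 0.777 and 0.795 at high density, against 1.28 and 1.21 at low density. This single-gene ratio was chosen after the values were seen.

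**Figure D2:**
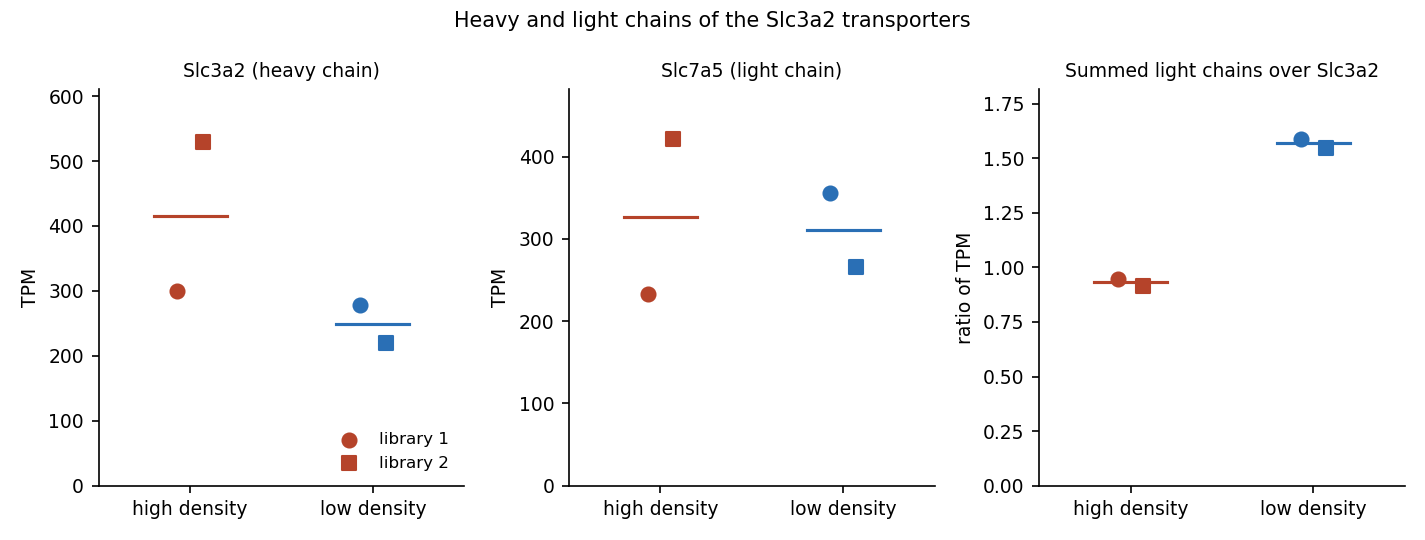
TPM of Slc3a2, TPM of Slc7a5 and the ratio of summed light chain TPM to Slc3a2 TPM in each library, high density in red on the left and low density in blue on the right, with circles for library 1, squares for library 2 and a bar at the group mean. The ratio is 0.917 to 0.948 at high density and 1.55 to 1.59 at low density, while Slc7a5 overlaps between the groups.

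Slc1a5, the ASCT2 exchanger that brings glutamine into dividing cells, had 212 and 321 TPM at high density, against 245 and 207 TPM at low density. The groups overlapped, and the difference of 0.21 ± 0.26 on the log2 scale (SE) did not pass the test (limma adjusted p = 0.671). Slc1a4, the related exchanger ASCT1 for alanine, serine and cysteine, had 24.6 and 62.6 TPM at high density, against 29.3 and 21.1 TPM at low density. High density library 2 stood far above the other libraries, which lay close together. The log2 fold change of Slc1a4 was 0.64 ± 0.39 (SE, limma adjusted p = 0.346). Leaving out high density library 1 gave a ratio of mean TPM of 2.49 and a call (limma adjusted p = 0.00585), and leaving out high density library 2 gave a ratio of 0.976. The ratio of Slc1a5 to Slc1a4 was 8.64 and 5.12 at high density, against 8.38 and 9.84 at low density, with only high density library 2 apart.

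The sodium-coupled carriers Slc38a1 and Slc38a2 (SNAT1 and SNAT2) take up glutamine, alanine and other small neutral amino acids, and Slc38a2 is known to be induced when amino acids run short. Slc38a2 had 239.0 and 238.5 TPM at high density, against 197 and 143 TPM at low density. The high density libraries were level and above both low density libraries, but the log2 fold change of 0.51 ± 0.24 (SE) did not pass the test (limma adjusted p = 0.233). Slc38a1 had 103 and 181 TPM at high density, against 125 and 99.97 TPM at low density, so the groups overlapped (log2 fold change 0.28 ± 0.29 SE, limma adjusted p = 0.600). It was 0.69 and called when high density library 1 was left out (limma adjusted p = 0.0305), and −0.12 when high density library 2 was left out. Slc38a2 exceeded Slc38a1 in every library, by 2.33 and 1.32 times at high density, against 1.58 and 1.43 times at low density.

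Slc7a1, the CAT1 uniporter that supplies arginine and lysine, had 52.1 and 109 TPM at high density, against 75.2 and 58.2 TPM at low density. As for Slc7a5, the high density libraries enclosed the low density libraries (log2 fold change 0.19 ± 0.33 SE, limma adjusted p = 0.775). Omitting high density library 1 gave 0.71 and a call (limma adjusted p = 0.0322), and omitting high density library 2 gave −0.34. Slc43a1, the LAT3 facilitator of branched-chain and other large neutral amino acids, was at 2.71 and 3.07 TPM at high density, against 3.07 and 2.45 TPM at low density, a log2 difference of 0.052 ± 0.36 (SE, limma adjusted p = 0.949). Its direction turned when libraries were centred on their medians (−0.13) or quantile normalised (−0.12).

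Slc38a9, a lysosomal carrier that senses arginine for mTORC1, showed the largest ratio among the 10. It had 6.63 and 9.02 TPM at high density, against 3.83 and 3.54 TPM at low density. Both high density libraries lay above both low density libraries, with a ratio of mean TPM of 2.12 (1.80 to 2.45 with each library left out in turn). The log2 fold change was 0.90 ± 0.34 (SE, 95% interval 0.16 to 1.64) and did not pass the test (limma adjusted p = 0.133). The gene was called without high density library 1 (limma adjusted p = 0.0172). In the mouse annotation GENCODE M21, Slc38a9 overlaps an antisense gene and a processed pseudogene, and Slc7a5 overlaps a gene on the other strand. None of these has a row of its own in the table by symbol. The libraries were strand-specific per the labels, but the sources used here do not say whether strand was used in counting.

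**Figure D3:**
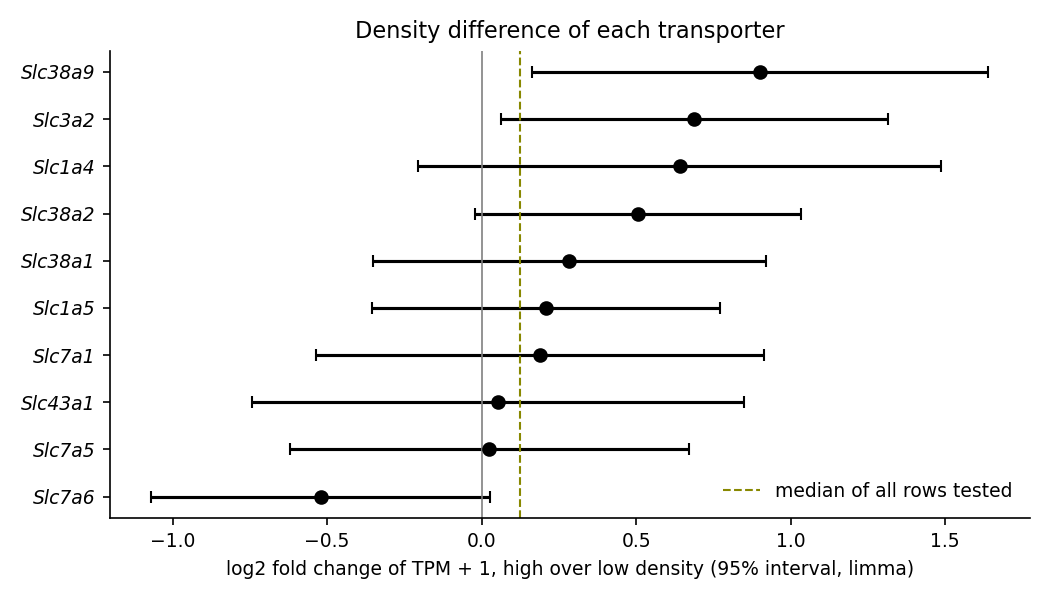
Log2 fold change of TPM + 1, high over low density, with its 95% interval from limma, for each transporter from Slc38a9 at the top (0.90) to Slc7a6 at the bottom (−0.52). The dashed line is the median of all rows tested (0.12), and every interval but those of Slc38a9 and Slc3a2 includes 0.

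For most of these genes the difference between the high density libraries was larger than the difference between the densities. On the log2 scale high density library 2 exceeded library 1 by a median of 0.70 over the 10 transporters, beside 0.27 over all rows tested, and it was the higher for 9 of 10, where 70.9% of all rows had that direction. The gap exceeded the size of the density difference for 7 of 10. The same count over all rows is not given here, where the median size of the density difference was 0.35. Slc1a4 had the widest gap, 1.32, at the 98.2 percentile of all rows tested, followed by Slc7a1 with 1.05 at the 94.9, Slc7a5 with 0.85 at the 89.5 and Slc3a2 with 0.82 at the 88.2 percentile. Slc38a2, Slc7a6 and Slc43a1 had gaps of −0.0029, 0.059 and 0.14, at the 28.6, 33.1 and 38.7 percentile, below the median of all rows. Within the low density group library 2 was lower than library 1 for all 10, with a median difference of −0.33, beside −0.12 over all rows tested.

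**Figure D4:**
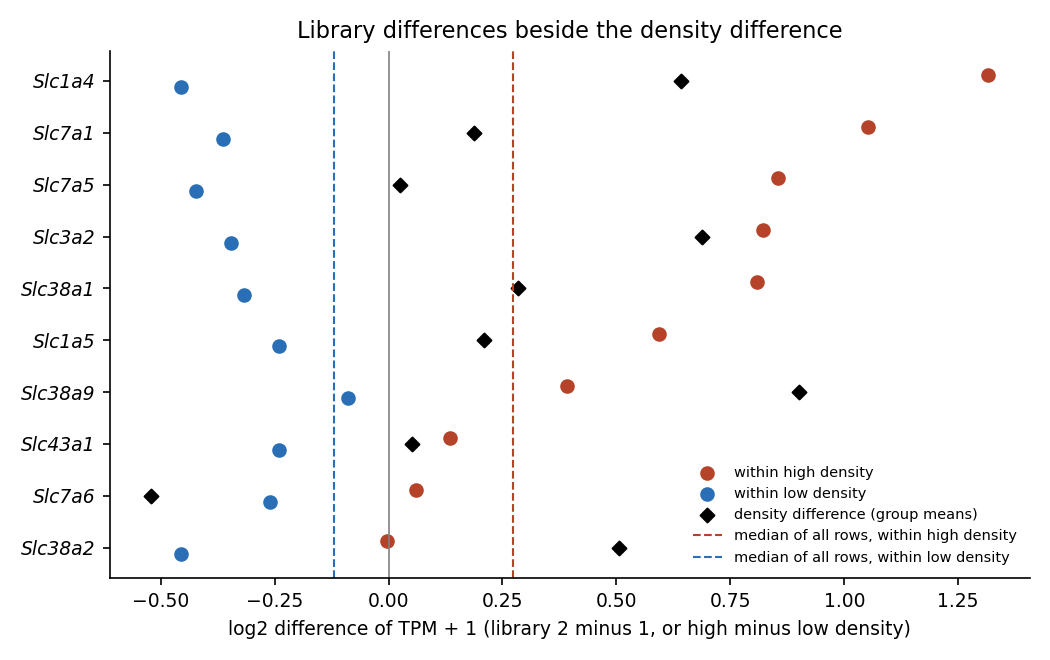
Log2 difference of TPM + 1 for each transporter between library 2 and library 1 within high density (red) and within low density (blue), with the density difference as black diamonds and the medians of all rows tested as dashed lines (0.27 and −0.12). The red points of Slc1a4, Slc7a1, Slc7a5, Slc3a2, Slc38a1 and Slc1a5 lie between 0.59 and 1.32, beyond their density differences, while Slc38a2, Slc7a6 and Slc43a1 lie below the red dashed line.

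Outside the 10 genes, the rows whose centred log2 profile lay nearest to that of Slc7a5 over the 4 libraries were Camk1g, Cdk10 and Cblb, at Euclidean distances of 0.046, 0.050 and 0.051. Cblb, a ubiquitin ligase that restrains T cell receptor signalling, had 34.6 and 60.7 TPM at high density, against 53.4 and 39.6 TPM at low density. With 4 libraries such closeness describes these libraries only. Among the transporters themselves Slc1a5 and Slc38a1 were the closest pair, at a distance of 0.18.

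Promoter sequences were at hand for 7 of the 10 genes, from RefSeq on build GRCm38.p6, with none for Slc7a5, Slc1a5 and Slc38a1. The deposited values name build mm9, so these positions belong to the reference alone. Windows of 300 bases, with 250 before the start, were searched on both strands for the E-box CACGTG, bound by MYC, the C/EBP-ATF element TGATGNAA, which ATF4 binds when amino acids run short, and the hypoxia element core ACGTG, which is also part of that E-box. The C/EBP-ATF element was found in 1 of the 7 genes, Slc1a4, and in 3.97% of all 32851 promoter windows, and the E-box in 1, Slc43a1, and in 7.15% of windows. The core ACGTG was found in 3, Slc43a1, Slc7a6 and Slc3a2, and in 19.6% of windows. These counts are by gene and the shares by window, and the 7 genes hold 9 windows. Slc7a1 and Slc7a6 have more than 1 window each, which gives them more room for a match. Shown here, from 250 bases before the start to 10 after it, are Slc1a4, which had the widest gap between the high density libraries, the heavy chain Slc3a2, and Slc7a6, the only gene with a negative log2 fold change. Capitals mark the matches to these motifs, each a match of letters and not a shown binding site. They lie at chr11:20332704-20332963 on the minus strand for Slc1a4, chr19:8713888-8714147 on the minus strand for Slc3a2 and chr8:106168604-106168863 on the plus strand for Slc7a6.
Slc1a4: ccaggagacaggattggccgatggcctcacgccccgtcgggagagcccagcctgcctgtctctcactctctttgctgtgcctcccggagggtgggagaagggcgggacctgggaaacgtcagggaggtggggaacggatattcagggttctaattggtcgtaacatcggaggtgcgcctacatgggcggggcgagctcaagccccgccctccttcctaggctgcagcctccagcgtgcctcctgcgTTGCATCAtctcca
Slc3a2: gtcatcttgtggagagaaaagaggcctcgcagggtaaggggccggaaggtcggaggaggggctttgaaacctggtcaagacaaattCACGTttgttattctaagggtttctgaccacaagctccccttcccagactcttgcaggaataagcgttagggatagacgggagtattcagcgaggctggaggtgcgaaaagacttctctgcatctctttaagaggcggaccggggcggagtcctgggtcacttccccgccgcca
Slc7a6: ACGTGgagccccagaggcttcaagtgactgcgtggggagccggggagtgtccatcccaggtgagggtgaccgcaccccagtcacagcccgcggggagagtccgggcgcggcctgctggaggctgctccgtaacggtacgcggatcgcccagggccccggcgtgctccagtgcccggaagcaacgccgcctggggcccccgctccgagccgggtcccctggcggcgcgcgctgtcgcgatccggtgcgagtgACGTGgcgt
The match in Slc1a4 reads as the element on the opposite strand and begins 4 bases before the start. Slc7a6 is shown from 1 of its starts, and the second match shown lies 66 bases before its other start.

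Most other amino acid carriers were silent in BEKO cells, while some were well expressed. Of 45 further carriers in the table, 15 passed the filter, the other 30 did not exceed 0.783 TPM in any library, and 7 were listed at 0 in all 4. Another 12 were above 0 in low density library 1 alone, at 0.365 TPM or less. Among those tested, Slc16a10 had 82.0 and 122 TPM at high density, against 76.0 and 66.2 TPM at low density. Slc6a6 had 73.9 and 59.0 TPM at high density, against 78.9 and 64.8 TPM at low density. Both averaged above Slc7a6 and Slc1a4 at each density. The 10 transporters made up 76.4% and 80.6% of the summed TPM of all these carriers at high density, against 79.6% and 78.1% at low density. Of the 15 tested, 1 rose and 0 fell, near the 6.68% called over all rows, and the median log2 fold change was 0.33, beside 0.12 over all rows.

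The carrier that rose was Slc6a9, the glycine transporter GlyT1. It had 62.9 and 89.2 TPM at high density, against 30.9 and 23.5 TPM at low density, with a ratio of mean TPM of 2.79 (log2 fold change 1.44 ± 0.28 SE, limma adjusted p = 0.0115). Leaving out low density library 2 ended the call, at a ratio of 2.46 (limma adjusted p = 0.260). The ratio was 3.23 without low density library 1. With no filter on low values Slc6a9 was not called either (limma adjusted p = 0.382). Slc43a2, the LAT4 facilitator related to Slc43a1, had 21.1 and 25.7 TPM at high density, against 13.7 and 11.8 TPM at low density (limma adjusted p = 0.108). Slc38a6, an orphan member of the SNAT family, had 13.1 and 18.2 TPM at high density, against 9.92 and 8.21 TPM at low density (limma adjusted p = 0.189).

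Of 12 mitochondrial amino acid carriers, 9 were tested, of which 0 were higher and 1 lower, beside 2.11% lower over all rows. Their median log2 fold change was −0.39, beside 0.12 over all rows. The gene that fell was Sfxn2, a sideroflexin of the mitochondrial membrane, with 10.8 and 14.3 TPM at high density, against 31.3 and 29.6 TPM at low density (log2 fold change −1.23 ± 0.28 SE, limma adjusted p = 0.0254). Leaving out low density library 1 or 2 ended the call (limma adjusted p = 0.453 and 0.481), at ratios of mean TPM of 0.424 and 0.401, beside 0.412 with all libraries. With no filter on low values Sfxn2 was not called either (limma adjusted p = 0.322). Slc25a22, a glutamate carrier, had 20.2 and 29.0 TPM at high density, against 40.7 and 37.3 TPM at low density (limma adjusted p = 0.173). Slc25a15, the ornithine carrier, had 19.2 and 25.0 TPM at high density, against 32.1 and 30.8 TPM at low density (limma adjusted p = 0.290).

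Of 26 listed genes of amino acid sensing, 25 were tested, 1 of which was higher and 0 lower, beside 4.57% higher and 2.11% lower over all rows. The median log2 fold change of the 25 genes was 0.045. The gene that rose was Rragd, one of the Rag GTPases that bring mTORC1 to the lysosome. It had 21.7 and 17.5 TPM at high density, against 5.49 and 6.19 TPM at low density, with a ratio of mean TPM of 3.36 (log2 fold change 1.59 ± 0.30 SE, limma adjusted p = 0.0106). Rragd was no longer called when low density library 1 or 2 was left out (limma adjusted p = 0.243 and 0.186, ratios 3.17 and 3.57), nor without a filter (0.276). The call was also lost after median centring (0.0604, log2 fold change 1.40) and after quantile normalisation (0.0622, log2 fold change 1.35). Rragc, which takes the same place as Rragd in the Rag heterodimer, had a log2 fold change of −0.070, and Rraga, which pairs with either, one of −0.087. Eif2ak4, which encodes the amino acid starvation kinase GCN2, had 21.2 and 19.4 TPM at high density, against 12.8 and 9.41 TPM at low density (limma adjusted p = 0.116), and the leucine sensor gene Sesn2 had 42.8 and 54.0 TPM at high density, against 34.7 and 27.6 TPM at low density (limma adjusted p = 0.189).

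Of 18 genes that use glutamine, branched-chain amino acids or arginine, 14 were tested and 0 were called by limma, with 3 at an unadjusted p under 0.05, where 6.68% of all rows were called and 23.5% had such a p. The median log2 fold change was 0.11. Bcat2, the mitochondrial branched-chain aminotransferase, had 164 and 161 TPM at high density, against 94.6 and 93.3 TPM at low density. Its libraries agreed closely within each group (log2 fold change 0.79 ± 0.23 SE, limma adjusted p = 0.0615), and it was called with robust moderation (0.0476) and with the filter raised to 5 TPM (0.0468). Asns, which makes asparagine from glutamine, had 129 and 238 TPM at high density, against 108 and 65.2 TPM at low density (log2 fold change 1.05 ± 0.33 SE, limma adjusted p = 0.0795). Its high density libraries differed by 0.88 on the log2 scale, close to the gap of Slc7a5. Asns was called without high density library 1 (limma adjusted p = 0.00586), without low density library 1 (0.0481), with the filter at 5 TPM (0.0410) and with the replicate number as a block (0.0108). Gls2, a glutaminase, had 5.70 and 3.94 TPM at high density, against 2.78 and 1.68 TPM at low density (limma adjusted p = 0.200).

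**Figure D5:**
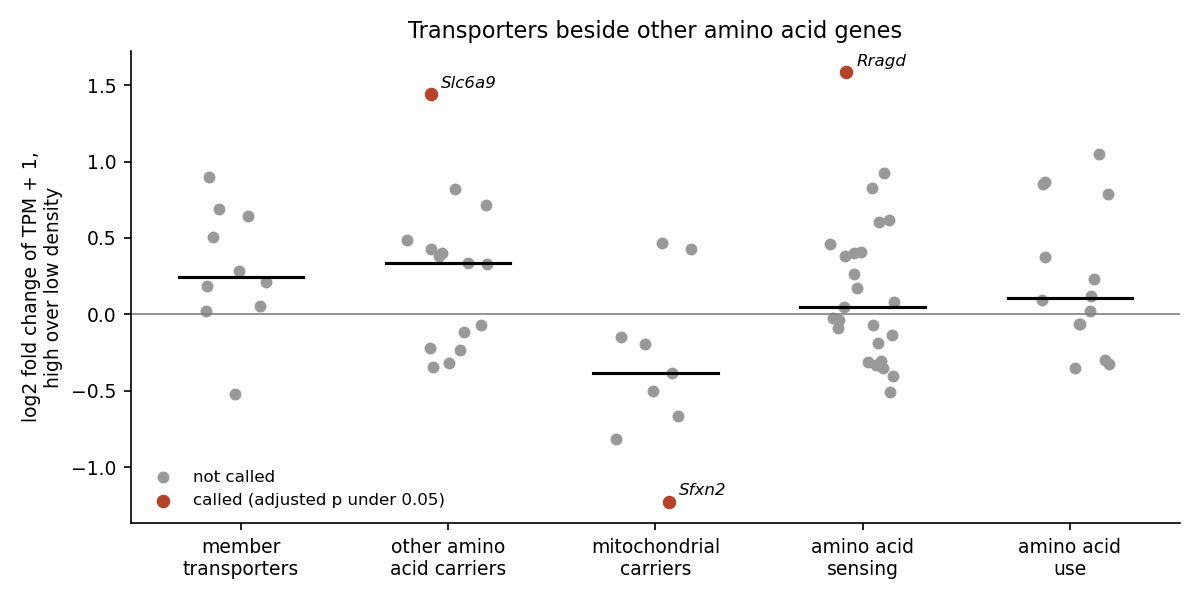
Log2 fold change of TPM + 1, high over low density, for every tested gene of 5 groups, with a bar at each group's median. Called genes are red and named (Slc6a9 at 1.44, Sfxn2 at −1.23 and Rragd at 1.59), and the 10 transporters on the left hold no called gene.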

How the data were processed

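RNA from 4 BEKO libraries was measured. The authors deposited 1 table of TPM, with each column summing to 1000000, and columns were tied to samples by the column names in the labels. Build mm9 and DESeq2 1.2.10 are named in the submitters' processing notes, without a role. The sources used here do not name the aligner, the counter or the gene lengths. TPM keeps no depth, so counting error cannot be stated, and TPM is relative to all RNA in the table.

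High density was compared with low density on log2(TPM + 1) with limma 3.58.1 in R 4.3.3 (group term, mean-variance trend, two-sided, Benjamini-Hochberg over the 10936 rows whose mean reached 1 TPM). Log2 fold changes are on the log2(TPM + 1) scale, which understates the change of weak genes. The script was tested on simulated data. The further genes named are the called ones of each list, or otherwise those of smallest p, up to 3, and the rows nearest to Slc7a5. Rraga, Rragc and Slc7a11 are given as members of the same complexes, Rag1 for its call, and Slc16a10 and Slc6a6 for their levels, outside that rule. Members and lists were chosen with earlier results of these data known. As alternatives, the pseudocount was 0.1 or 5 and the filter was dropped or raised to 5 TPM, beside other scalings, other moderation, a replicate block and the omission of each library. A lone library is then assumed to vary like the other group. For a lone high density library that is the tighter low density pair, so its calls come more easily.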

Additional observations from a re-analysis of the deposited data

How the results depend on the processing

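Over all rows 731 were called (68.4% higher). Without a filter limma called 0 (2565 at an unadjusted p under 0.05), also 0 in each list of other carriers, mitochondrial carriers and sensing genes, 2, 1 and 6 of which were at an unadjusted p under 0.05. Median centring gave 314 calls (51.0% higher) and quantile normalisation 360 (60.0% higher), and both gave 0 calls among sensing genes. With 1 library left out the calls ranged from 233 to 3270. Without high density library 1 these were 29.9% of rows and 5 of the 10 transporters were called, all higher: Slc3a2, Slc1a4, Slc7a1 (limma adjusted p = 0.0322), Slc38a1 (0.0305) and Slc38a9. Leaving out any other library called 0 transporters, as did the 11 other alternatives. The counts ranged from 0 to 5 for transporters, for other carriers and for mitochondrial carriers, from 0 to 6 for sensing genes and from 0 to 4 for amino acid use genes. Amino acid use genes had 2 calls at a mean of at least 5 TPM, 1 with robust moderation and 1 with the replicate block.

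The sign of Slc7a5 turned after median centring (−0.16), and that of Slc43a1 after median centring (−0.13) and quantile normalisation (−0.12). With 1 library left out the log2 fold change ranged from −0.40 to 0.45 for Slc7a5, from −0.088 to 0.51 for Slc1a5, from −0.016 to 1.30 for Slc1a4, from −0.34 to 0.71 for Slc7a1, from −0.12 to 0.69 for Slc38a1 and from −0.067 to 0.17 for Slc43a1. The cause was not tested. Slc43a1 has no value with the filter at 5 TPM. Slc3a2, Slc38a2 and Slc38a9 stayed positive and Slc7a6 negative under all 15 alternatives. The ratio of summed transporter TPM, 1.28, ranged from 0.988 to 1.56.

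The replicate block called 0 of the 10 transporters and left the count of each list but the amino acid use genes unchanged. Over tested rows, the deviations of same-numbered libraries from their group means correlated at r = 0.042. This value cannot show whether they shared a culture or a day, which the labels do not state.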
